A study of Homo sapiens with 3 samples.

Results

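The genes described here are 10 genes of axon growth and of the microtubule cytoskeleton, namely STMN2, STMN3, STMN4, DCX, GAP43, MAPT, MAP2, MAP1B, KIF5C and TUBB3. They were taken by gene symbol from the 33538 genes counted, and all 10 were found. Counts came from single cells of human blood vessel organoids, which were grown from H1, an established embryonic stem cell line, and were harvested at day 45. All organoids carried the same cassette, a doxycycline-switched NEUROD1-P2A-GFP inserted by PiggyBac transposition, and all received the neurotrophic factors BDNF and NT-3 in the medium from day 15. The groups were organoids without doxycycline, organoids with 15 days of doxycycline at 1 µg/ml and organoids with 45 days of it. Each group was 1 library of 5 to 6 pooled organoids, so nothing here was tested between groups. Which 15 days of the culture these were is not stated in the labels. The intervals given below are 95% intervals for counting error only, and they say nothing of how organoid pools vary.

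An axon is built on bundles of microtubules, polymers of alpha and beta tubulin. Stathmins bind free tubulin and favour disassembly, whereas doublecortin, tau, MAP2 and MAP1B bind microtubules and stabilise or bundle them. GAP43 is a membrane phosphoprotein of the growth cone, and KIF5C is a heavy chain of kinesin-1, the motor that carries cargo along microtubules. NEUROD1 is a basic helix-loop-helix factor that drives neuronal differentiation and binds E-box motifs (CANNTG).

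The start-site windows of 2 members with different base composition are shown as examples. Doxycycline switches on a cassette for an E-box binding factor, and whether that factor acts on these genes was not tested. The windows run from 250 bases before a start site to 50 bases after it, 5′ to 3′ on the gene's strand, from RefSeq (GRCh38.p14), and capitals mark an E-box. The DCX window is chrX:111412048-111412347 and the STMN3 window is chr20:63652717-63653016, both on the minus strand. For each gene the first listed window that held an E-box of a searched form was taken, so the motif was a condition of the choice. Another DCX window, chrX:111412143-111412442, held none.
DCX: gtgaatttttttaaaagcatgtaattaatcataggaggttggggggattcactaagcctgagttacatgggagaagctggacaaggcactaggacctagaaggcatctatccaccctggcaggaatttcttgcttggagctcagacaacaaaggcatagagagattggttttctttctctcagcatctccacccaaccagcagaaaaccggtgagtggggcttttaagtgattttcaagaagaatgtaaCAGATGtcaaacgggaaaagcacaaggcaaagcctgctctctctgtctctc
STMN3: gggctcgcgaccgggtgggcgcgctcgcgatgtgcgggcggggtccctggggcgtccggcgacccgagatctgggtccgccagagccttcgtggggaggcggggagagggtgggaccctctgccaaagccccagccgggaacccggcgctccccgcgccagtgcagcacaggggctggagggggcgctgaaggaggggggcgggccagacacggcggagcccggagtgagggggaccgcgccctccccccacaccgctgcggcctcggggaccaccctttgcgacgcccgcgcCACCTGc
The DCX window held 2 CpG and had CAGATG from base 250. The STMN3 window held 35 CpG and had CAGGTG on the opposite strand, printed as CACCTG, from base 294. Over all 35116 windows of this length the median was 14 CpG. Searched on either strand, CAGATG was in 14.7% of all windows. The same search found CAGGTG in 20.59% of them. Another form of the motif, CAGCTG, was in 17.95%. At least 1 of the 3 was in 43.74% of all windows and in 5 of the 14 windows that were present for 7 of the members. A match is a description and not a binding site.

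In GENCODE 29 (GRCh38, coordinates counted from 1) all 10 are protein-coding genes. The stathmins STMN2 (ENSG00000104435, chr8:79610814-79666175, plus strand), STMN3 (ENSG00000197457, chr20:63639705-63657682, minus) and STMN4 (ENSG00000015592, chr8:27235323-27258420, minus) encode neuronal relatives of stathmin 1. DCX (ENSG00000077279, chrX:111293779-111412429, minus) encodes doublecortin, a marker of young migrating neurons. MAPT (ENSG00000186868, chr17:45894382-46028334, plus) encodes tau, which is enriched in axons. MAP2 (ENSG00000078018, chr2:209424058-209734118, plus) encodes a protein best known from dendrites, and MAP1B (ENSG00000131711, chr5:72107234-72209570, plus) one of growing axons. GAP43 (ENSG00000172020) lies at chr3:115623324-115721490 on the plus strand, and KIF5C (ENSG00000168280) at chr2:148875250-149026759 on the plus strand. TUBB3 (ENSG00000258947, chr16:89921392-89938761, plus) encodes the neuronal beta tubulin isotype. A second annotated gene on the same strand, AC092143.1, covers 1364 of the 1369 bases (99.63%) of the last exon of the transcript TUBB3-201. AC092143.1 itself had 0 UMIs in every library. Reads that match both genes may be left uncounted in a 3′ assay, so TUBB3 may be counted too low. How such reads were treated is not given in the sources used here, and the TUBB3 values are uncertain.

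The files held 59879923 UMIs in 10232 barcodes of the uninduced library, 49488425 in 5962 barcodes after 15 days and 64171327 in 10765 barcodes after 45 days. Pairs of libraries shared 13 to 33 barcodes. After filtering, 8133 uninduced cells (median 5142 UMIs), 5050 cells of the 15-day library (median 7304.5 UMIs) and 8813 cells of the 45-day library (median 5555 UMIs) were used. Cells were clustered without the 10 genes, and clusters were named from other markers, so the genes described here had no part in naming a class. NEUROD1 had 1.53 CPM (UMIs per 1000000 UMIs of the library) without induction, 1.47 CPM at 15 days and 43.8 CPM at 45 days. Its library total was therefore higher in the 45-day library alone. Its place differed, however. Of its 66 UMIs in the 15-day library, 62 lay in the neuron-like cells described below, a class not found without induction. Whether transcripts of the cassette are counted at the NEUROD1 gene is not given in the sources used here.

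Neuron-like cells, named from neurofilament, synaptic and RNA-binding genes such as NEFL, SNAP25 and ELAVL4, were found in both induced libraries. There were 0 of 8133 without induction, which allows a share of up to 0.0369%, 297 of 5050 (5.88%, 5.25 to 6.57) at 15 days and 306 of 8813 (3.47%, 3.10 to 3.88) at 45 days. They held 5.68% of the UMIs of the 45-day library and 11.6% of those of the 15-day library. Mesenchymal-like cells numbered 6049 in the uninduced, 2944 in the 15-day and 6414 in the 45-day library, and mural-like cells, the contractile cells around vessels, numbered 335, 581 and 700 in the same order. Endothelial-like cells numbered 445, 319 and 216.

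Over whole libraries, nearly all of the genes were higher with induction, and STMN4 and DCX differed most. STMN4 had 1 UMI in 8133 cells without induction, 4653 UMIs (103 CPM) at 15 days and 3001 UMIs (54.9 CPM) at 45 days. With 1 UMI on the other side, the ratio has a wide interval, 497 to 109450-fold at 45 days over none. Over all barcodes, before filtering, STMN4 had 10 UMIs without induction, 5105 UMIs at 15 days and 3367 UMIs at 45 days. The size of its ratio therefore depends on the filter. DCX had 5.06 CPM in the uninduced library, 113 CPM after 15 days and 64.7 CPM after 45 days, which is 12.8-fold (11.3 to 14.6) higher at 45 days than without induction. GAP43 had 12.6 CPM, 184 CPM and 93.9 CPM in the same order, KIF5C had 13.6, 160 and 93.1 CPM, and MAPT had 5.65, 62.8 and 28.7 CPM. All 5 of these genes were low without induction, highest in the 15-day library and in between at 45 days. STMN2 had 136 CPM in the uninduced library, 873 CPM after 15 days and 442 CPM after 45 days, and MAP1B had 186, 618 and 371 CPM. Both of these genes thus had a considerable level before any induction. MAP2 had 10.1, 35.7 and 30.8 CPM, and STMN3 had 17.5, 42.9 and 33.7 CPM. TUBB3 had 37 UMIs (0.733 CPM) in the uninduced library, 175 UMIs (3.89 CPM) after 15 days and 92 UMIs (1.68 CPM) after 45 days, under the level of 10 CPM that was required for counting.

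With 5 CPM added to each side and 10 CPM required in either library, 7 of 9 members were at least 2-fold higher at 45 days than without induction, against 1.74% of all 9313 genes compared, and 0 were 2-fold lower, against 1.44%. The others were STMN3, with a log2 ratio of 0.78, and MAP1B, with 0.98. At 15 days 9 of 9 were at least 2-fold higher than without induction, against 4.49% of 9691 genes, and 0 lower, against 1.08%. STMN4 (0.0198 CPM), DCX (5.06 CPM) and MAPT (5.65 CPM) were under 10 CPM without induction. They entered only through the induced libraries and could not have been counted as lower. The members were also chosen with earlier results of these data known, so the shares over all genes are a description and no test. The median log2 ratio of the members was 1.66 at 45 days and 2.67 at 15 days, beside 0.14 and 0.20 over all genes. Between the induced libraries, all 10 genes were lower at 45 days, 1 of 9 by at least 2-fold against 1.68% of genes, and 0 were 2-fold higher, against 0.196%. That gene was MAPT, with a log2 ratio of -1.01. GAP43 (-0.94) and STMN2 (-0.97) lay close to the same limit. In sums over libraries, more neuron-like cells and more RNA per such cell cannot be told apart.

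When neuron-like cells were left out, most of the difference was gone for some genes and not for others. DCX (18.1 against 5.06 CPM) and KIF5C (a log2 ratio of 1.56) were still at least 2-fold higher at 45 days than without induction, 2 of 7 members against 0.829% of genes. At 15 days KIF5C (85.1 against 13.6 CPM), STMN2 (395 against 136 CPM) and GAP43 (42.5 against 12.6 CPM) were, 3 of 8 members against 2.07% of genes. DCX lay just under the limit at 15 days, with 15.1 against 5.06 CPM (a log2 ratio of 0.9987). In these counts too, DCX entered only through the induced libraries. MAP1B went the other way in these sums. Without neuron-like cells it had 168 CPM at 45 days and 172 CPM at 15 days, against 186 CPM without induction. This direction depended on the clusters present. A mesenchymal-like cluster with 508 CPM in the uninduced library held 502 of its cells, but 2 of the 15-day and 33 of the 45-day library. With 7 mesenchymal-like clusters weighted equally, MAP1B had 115 CPM at 45 days and 122 CPM at 15 days, against 99.5 CPM without induction.

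**Figure D1:**
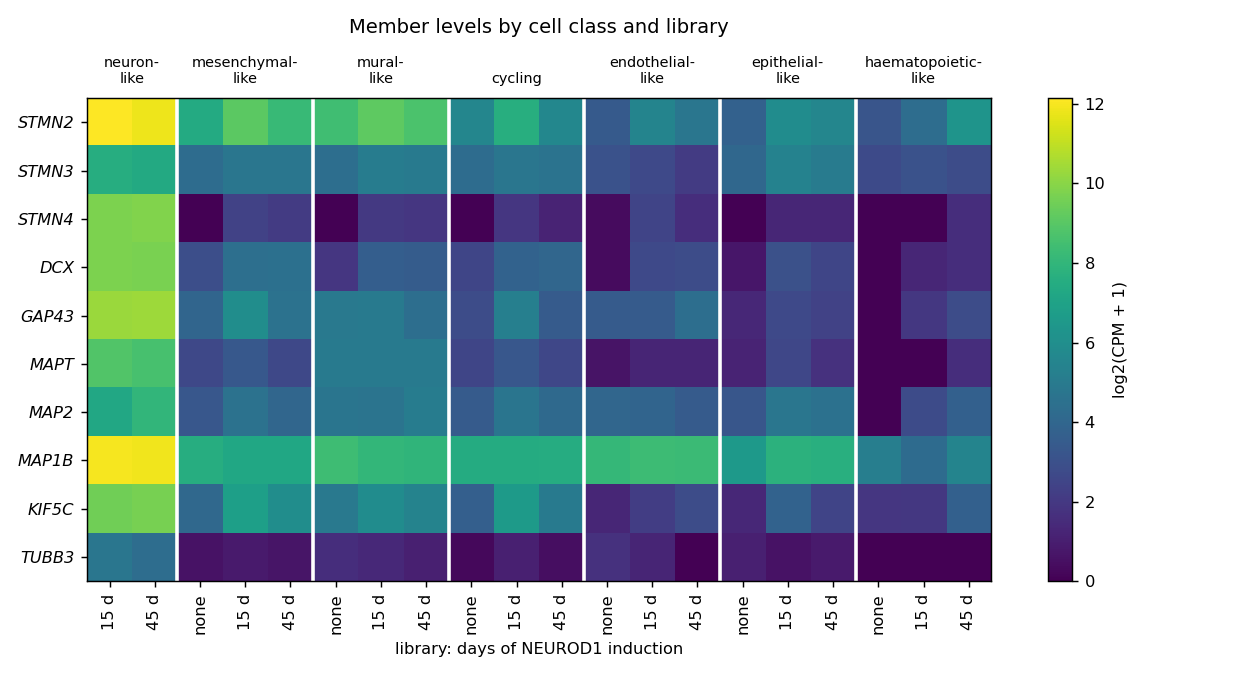
Levels of the 10 genes (rows) in 7 cell classes by library (columns, days of NEUROD1 induction), coloured by log2(CPM + 1) of UMIs summed over each class. The neuron-like columns are the brightest for every gene, and STMN2 and MAP1B are also bright in mesenchymal-like and mural-like cells of the uninduced library, where they had 170 to 336 CPM.

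All 10 genes were at their highest in neuron-like cells. At 45 days 10 of 10 were at least 4-fold above mesenchymal-like cells, against 8.32% of genes, and 9 of 10 were at least 4-fold above mural-like cells, against 8.54%. At 15 days 10 of 10 passed in both comparisons, against 8.47% and 8.67% of genes. The member below the limit was TUBB3, with 59 UMIs in neuron-like and 5 UMIs in mural-like cells at 45 days. Since classes were made from the same cells, these ratios describe the classes and test nothing.

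The share of a gene's UMIs that lay in neuron-like cells ran over a wide range. STMN4 had 95.1% (94.3 to 95.9) of its UMIs there at 45 days and 96.8% (96.2 to 97.2) at 15 days. For GAP43 the share was 80.2% at 45 days and 79.6% at 15 days, for MAPT 76.6% and 85.6%, and for DCX 73.7% and 88.2%. Fewer than 6 in 10 UMIs of MAP1B lay there at 45 days (57.3%), against 75.4% at 15 days. The share was 46.9% and 60.0% for STMN2, 49.3% and 52.9% for KIF5C, 47.2% and 49.6% for MAP2, and 28.2% and 51.0% for STMN3, with 45 days first in each pair. The 15 neuron markers had a median share of 85.5% at 45 days and 92.9% at 15 days, above the members' medians of 60.7% and 77.1%.

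**Figure D2:**
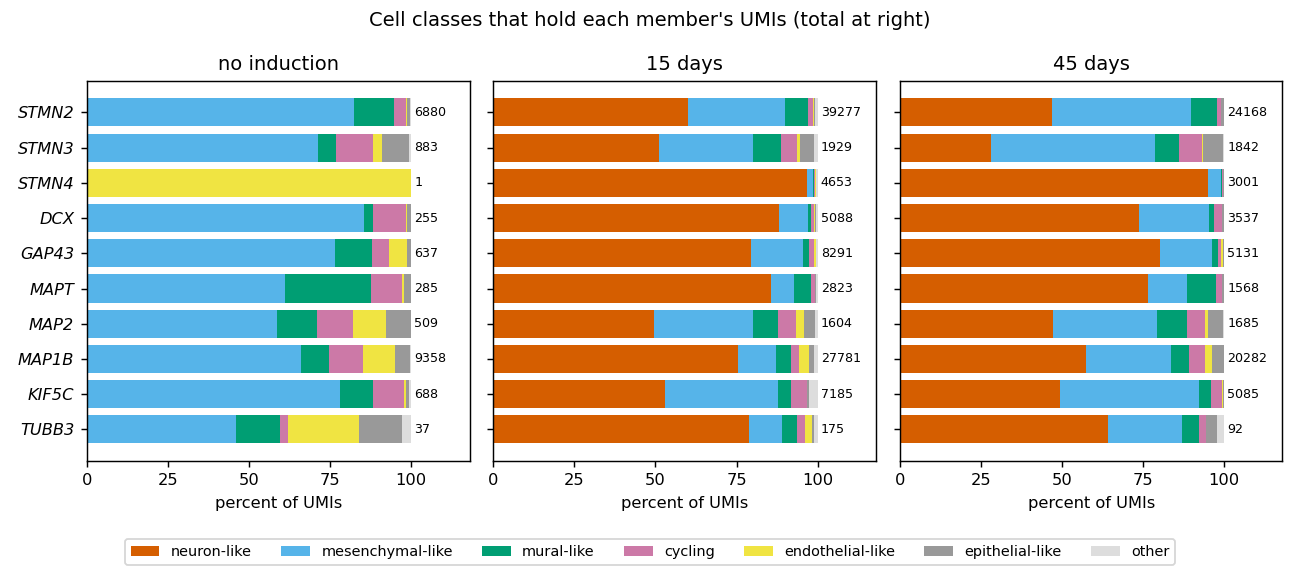
Percent of each gene's UMIs held by each cell class, 1 panel per library, with the gene's total UMIs at the right of its bar. Neuron-like cells hold 95.1% and 96.8% of STMN4 UMIs at 45 and 15 days, while mesenchymal-like cells hold 82.4% of STMN2 UMIs without induction.

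The uninduced library, in which no neuron-like cell was found, shows which genes other cells used. A gene was called limited to neuron-like cells where neither mesenchymal-like nor mural-like cells of that library reached 10 CPM. This left 3 genes, STMN4, DCX and TUBB3, and put 7 genes in the group that mesenchymal-like or mural-like cells also expressed. By the higher of the 2 classes, the nearest genes were DCX, at 6.54 CPM in mesenchymal-like cells, and STMN3, at 19.6 CPM in mural-like cells. GAP43 had 28.8 CPM in mural-like cells, but from 4 of 335 cells. Its call therefore rests on the 14.7 CPM of mesenchymal-like cells. The call says nothing for TUBB3, which reached at most 26.4 CPM even in neuron-like cells. Its level in mesenchymal-like cells was 3.10% of the neuron-like level at 45 days and 3.16% at 15 days, above the 1.36% and 1.98% of MAPT. With a limit of 5 CPM DCX left the limited group, and with 20 CPM STMN3 joined it. At 20 CPM GAP43 stayed out only through its mural-like value.

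STMN4 was the clearest of the limited genes. It had 919 CPM in neuron-like cells at 45 days and 863 CPM at 15 days. In the uninduced library it had 0 UMIs in 6049 mesenchymal-like cells, which allows up to 0.0901 CPM, and 0 UMIs in 335 mural-like cells, which allows up to 1.20 CPM. Its 1 UMI among the filtered cells of that library was in an endothelial-like cell. In the induced libraries mesenchymal-like cells had 3.28 CPM at 45 days and 4.22 CPM at 15 days. These were 0.357% and 0.489% of the neuron-like level, below the median of the same ratio for the 15 neuron markers, 0.806% and 0.830%. The trace of STMN4 thus lay within the range of the neuron markers, 0.292 to 10.8% at 45 days and 0.289 to 17.4% at 15 days.

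DCX was limited by the rule, yet it was counted elsewhere too. It had 839 CPM in neuron-like cells at 45 days and 860 CPM at 15 days. Mesenchymal-like cells had 218 UMIs (6.54 CPM, 5.70 to 7.47) without induction, 20.6 CPM at 15 days and 21.6 CPM at 45 days. Among mesenchymal-like clusters of the uninduced library its level ran from 0.686 CPM in cluster 14 (led by COL15A1) to 21.2 CPM in cluster 12 (led by G0S2), the last from 9 UMIs in 72 cells. At 45 days it was highest, at 57.4 CPM, in cluster 9 (led by LHX2 and DKK1). Its ratio to the neuron-like level in mesenchymal-like cells was 2.57% at 45 days and 2.39% at 15 days, above the median of the neuron markers and within their range.

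TUBB3 was counted sparsely in every class. It had 59 UMIs in neuron-like cells at 45 days and 138 UMIs (26.4 CPM) at 15 days. Mesenchymal-like cells had 17 UMIs in the uninduced, 18 in the 15-day and 21 in the 45-day library, each in a different cell. By contrast TUBB2A, another neuronal beta tubulin gene, had 3788 UMIs in neuron-like cells at 45 days and 7956 at 15 days.

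STMN2 had a high level in mesenchyme whether or not NEUROD1 was induced. Neuron-like cells had 3649 CPM at 45 days and 4517 CPM at 15 days. Mesenchymal-like cells had 170 CPM in the uninduced library, 545 CPM after 15 days and 291 CPM after 45 days, and mural-like cells had 336, 551 and 419 CPM. Endothelial-like cells were far below, with 9.94, 42.9 and 26.4 CPM. With each cell thinned to 2000 UMIs, a UMI of STMN2 was found in 10.8% of uninduced, 32.8% of 15-day and 19.7% of 45-day mesenchymal-like cells (15.3%, 46.9% and 28.0% before thinning). In endothelial-like cells, whose median depth before thinning was 6822, 8433 and 6105.5 UMIs against 4801, 6903.5 and 5317.5 UMIs in mesenchymal-like cells, the shares were 1.52%, 6.78% and 5.00% (3.37%, 21.6% and 12.04% before thinning). Thinning left 5854 of 6049, 2844 of 2944 and 6128 of 6414 mesenchymal-like cells, and 396 of 445, 295 of 319 and 180 of 216 endothelial-like cells. The difference between the 2 classes at equal depth was larger than counting error in each library.

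The mesenchymal level of STMN2 was uneven between clusters. In the uninduced library it ran from 5.75 CPM in cluster 6 (led by LHX9) to 1319 CPM (1212 to 1434) in cluster 12. Cluster 12, led by G0S2, CDKN2B-AS1 and CDKN2A, the last a cell-cycle inhibitor, was also the highest mesenchymal cluster at 15 days (1129 CPM) and at 45 days (985 CPM). Cluster 2 (led by TCF21) had 484 CPM in the uninduced library, 764 CPM after 15 days and 591 CPM after 45 days. Cluster 5, led by genes of the hypoxia response such as ANKRD37 and VEGFA, had 487, 854 and 542 CPM. Cluster 12 thus stood first in all 3 libraries, and the lowest levels were in the clusters led by LHX9, ALX1, PTX3 and HAND1 where these held at least 50 cells.

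STMN3, another stathmin, varied less between clusters. Neuron-like cells had 167 CPM at 45 days and 188 CPM at 15 days. Mesenchymal-like cells had 18.9 CPM in the uninduced library, 26.1 CPM after 15 days and 26.0 CPM after 45 days, and mural-like cells had 19.6, 33.7 and 29.9 CPM. Across mesenchymal-like clusters the highest level was 1.75 times the lowest at 45 days and 1.54 times at 15 days, against 39.4 and 15.0 times for STMN2. In the uninduced library the ratios were 5.51 for STMN3 and 229 for STMN2. Both rest on a low denominator of few UMIs. For STMN3 it was 4.72 CPM in the 72 cells of cluster 12, and for STMN2 5.75 CPM in the 233 cells of cluster 6.

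GAP43, the growth cone phosphoprotein, had 1326 CPM in neuron-like cells at 45 days and 1265 CPM at 15 days. In mesenchymal-like cells it had 14.7 CPM in the uninduced library, 61.4 CPM after 15 days and 23.0 CPM after 45 days. Its mural-like level without induction, 28.8 CPM, came from 72 UMIs in 4 of 335 cells, 48 of them in 1 cell, so it is no level of the class. At 15 days 77 of 581 mural-like cells had a UMI (29.9 CPM), and at 45 days 53 of 700 (19.9 CPM). In the mesenchymal-like cells without induction 246 cells had a UMI and the 5 richest held 11.7% of the 488 UMIs. The highest mesenchymal cluster at 15 days was cluster 9 with 151 CPM, followed by cluster 5 with 125 CPM.

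MAP1B was high in every class of the vessel wall. Neuron-like cells had 3740 CPM at 45 days and 4016 CPM at 15 days. Mesenchymal-like cells had 186 CPM in the uninduced library, 150 CPM after 15 days and 149 CPM after 45 days, and mural-like cells had 326, 264 and 246 CPM. Endothelial-like cells had 268, 317 and 309 CPM, all above the mesenchymal-like level of the same library. With 7 mesenchymal-like clusters weighted equally the direction between libraries was the opposite, with 115 CPM at 45 days and 122 CPM at 15 days, against 99.5 CPM without induction. Within mesenchyme of the uninduced library it was highest, at 508 CPM, in cluster 14, led by the matrix and imprinted genes COL15A1 and DLK1. That cluster held 502 cells of the uninduced, 2 of the 15-day and 33 of the 45-day library, so it may be a feature of 1 library.

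MAPT was higher in mural-like than in mesenchymal-like cells of every library. Mural-like cells had 30.4 CPM in the uninduced library, 30.5 CPM after 15 days and 29.9 CPM after 45 days. Mesenchymal-like cells had 5.22, 9.18 and 5.27 CPM, and endothelial-like cells 0.584, 1.42 and 1.35 CPM. The 76 mural UMIs without induction lay in 19.1% of the cells, and the mural levels of the 3 libraries did not differ beyond counting error. Neuron-like cells had 387 CPM at 45 days and 463 CPM at 15 days. MAP2 was also higher in mural-like cells, with 25.2, 24.5 and 32.9 CPM, than in mesenchymal-like cells, with 8.95, 22.7 and 15.2 CPM. At 15 days those 2 classes did not differ in MAP2 beyond counting error.

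KIF5C differed widely between the libraries outside neuron-like cells too. Neuron-like cells had 807 CPM at 45 days and 728 CPM at 15 days. Mesenchymal-like cells had 16.1 CPM in the uninduced library, 116 CPM after 15 days and 61.1 CPM after 45 days. Mural-like cells had 28.8, 58.1 and 42.3 CPM, while endothelial-like cells had 1.46, 3.54 and 6.09 CPM. Cluster 9 was the highest mesenchymal cluster, with 178 CPM at 45 days and 215 CPM at 15 days. In cluster 1 (led by CLDN11 and MEOX2) it had 50.7 CPM in the uninduced library, 183 CPM after 15 days and 105 CPM after 45 days.

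**Figure D3:**
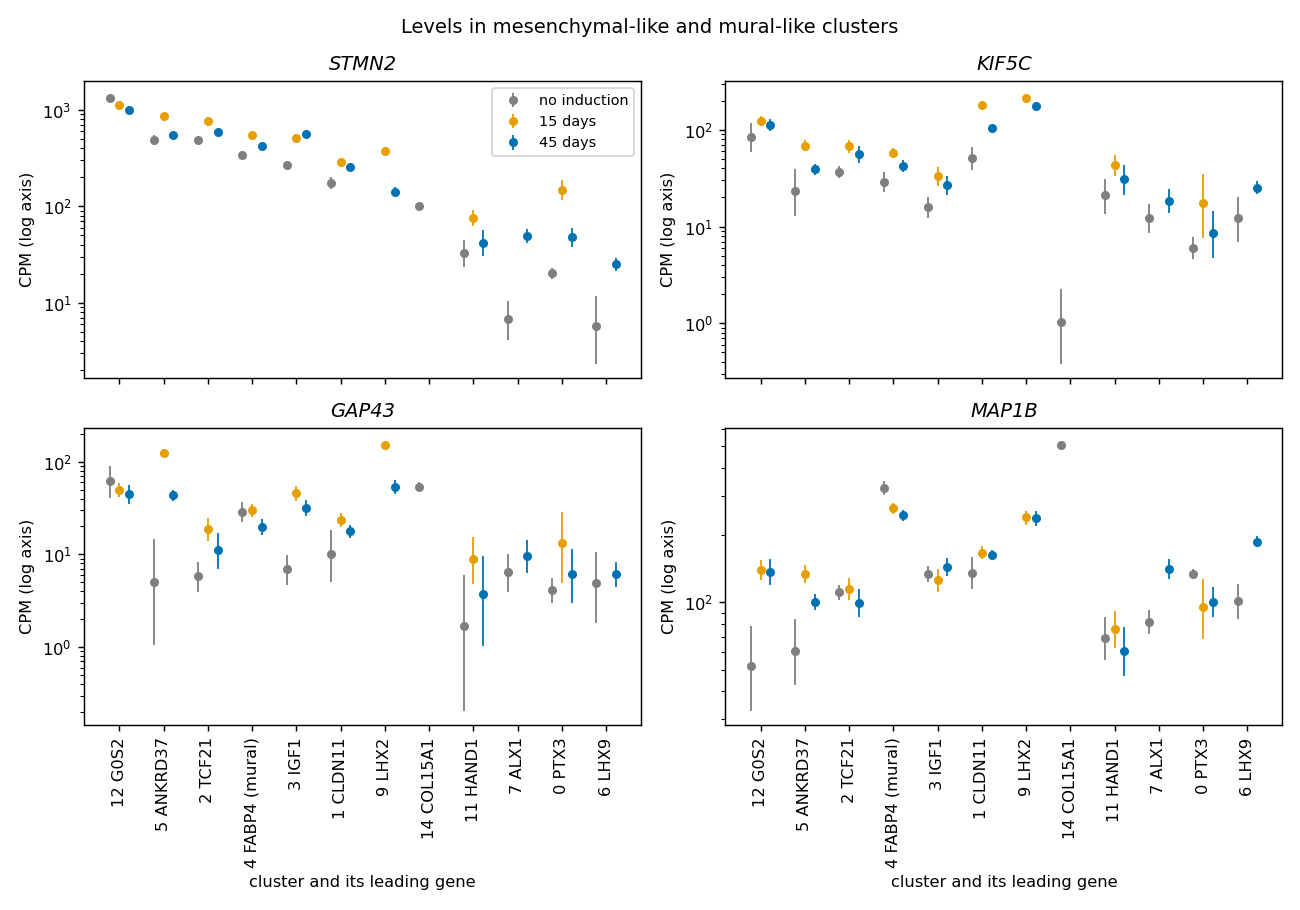
Levels (CPM, log axes) of STMN2, KIF5C, GAP43 and MAP1B in mesenchymal-like clusters and the mural-like cluster with at least 50 cells of a library, ordered by the STMN2 level, with 95% counting intervals and 1 colour per library. STMN2 is highest in the cluster led by G0S2 in each library (985 to 1319 CPM), and KIF5C is highest in the cluster led by LHX2, with 215 CPM at 15 days.

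Within mesenchymal-like cells, DCX and KIF5C were at least 2-fold higher at 45 days than without induction, 2 of 7 members against 1.08% of genes. At 15 days STMN2, DCX, GAP43 and KIF5C were, 4 of 7 against 2.23% of genes, and KIF5C was 7.23-fold (6.59 to 7.95) higher than without induction. None was 2-fold lower at 45 days (1.44% of genes) or at 15 days (1.42%). Between 45 and 15 days 1 of 7, GAP43, was 2-fold lower in mesenchymal-like cells, against 0.432% of genes, and 0 were higher, against 0.193%. Within mural-like cells 0 of 8 members reached 2-fold at 45 days, against 1.07% of genes, and 1 of 8, DCX, did at 15 days, against 1.16%. None was 2-fold lower in mural-like cells at 45 days, against 1.65%, or at 15 days, against 1.61%. Without induction DCX (6.54 CPM) and MAP2 (8.95 CPM) were under the required 10 CPM in mesenchymal-like cells, as DCX (2.80 CPM) was in mural-like cells. There they entered only through the induced libraries and could not have been counted as lower. Between 45 and 15 days 0 of 8 were 2-fold higher in mural-like cells, against 0.147%, and 0 were lower, against 0.215%. Mesenchymal-like cells of the libraries were drawn from different clusters. Clusters 0, 2, 3 and 7 held most of them without induction, clusters 1, 5, 9 and 2 held most at 15 days, and clusters 1, 6 and 5 held most at 45 days. With 7 clusters that had at least 50 cells in every library weighted equally, 0 of 7 members were at least 2-fold higher at 45 days than without induction, against 0.126% of genes, and 2 of 7 were at 15 days, against 0.39%. Those were GAP43 (40.7 against 13.6 CPM) and KIF5C (76.7 against 34.2 CPM). STMN2 then had 433 CPM at 45 days and 538 CPM at 15 days, against 398 CPM without induction, a log2 ratio of 0.43 at 15 days beside 1.65 with the cells pooled. KIF5C was higher in 7 of 7 clusters in each induced library than without induction.

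Induced libraries also held neuron-like cells, whose released RNA can be counted in other droplets. At 15 days the level in mesenchymal-like cells was 16.0% of the neuron-like level for KIF5C, 14.9% for MAP2, 13.8% for STMN3 and 12.1% for STMN2, and 4.86% for GAP43. The 15 neuron markers had a median of 0.830% (0.289 to 17.4) in the same cells. At 45 days KIF5C had 7.57%, MAP2 5.95%, STMN3 15.6% and STMN2 7.98%, and GAP43 had 1.74%, beside a marker median of 0.806% (0.292 to 10.8). MAPT was at 7.74% in mural-like cells and 1.36% in mesenchymal-like cells at 45 days, and at 6.59% and 1.98% at 15 days. The part of released RNA in the differences between libraries was not tested.

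**Figure D4:**
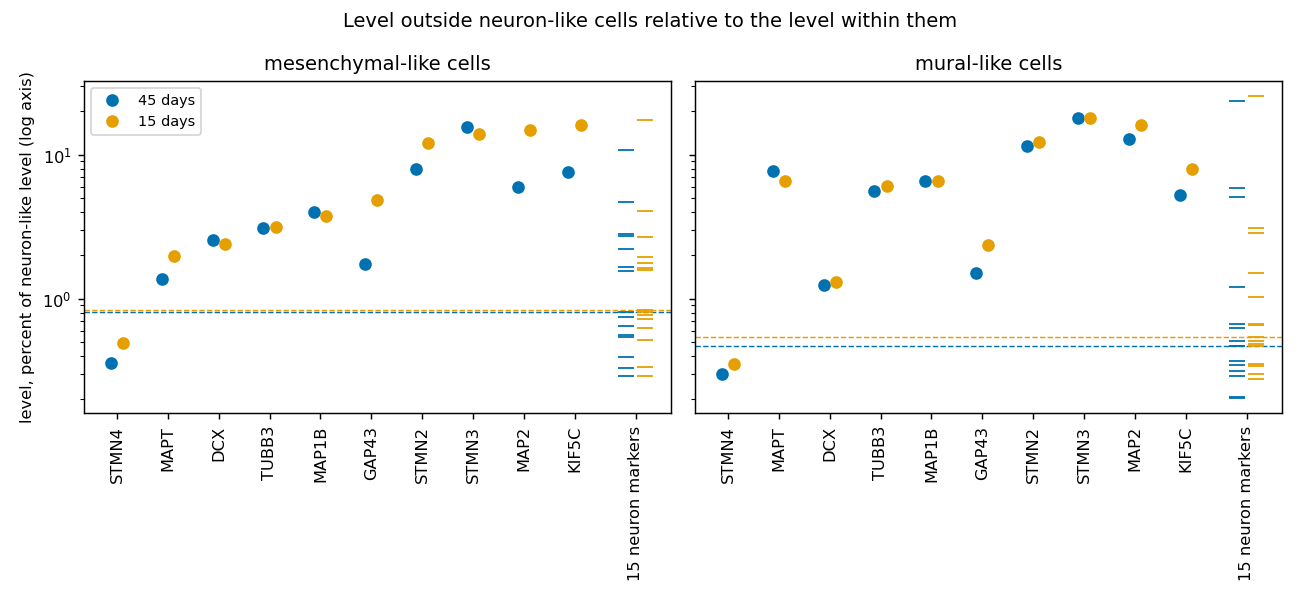
Level of each gene in mesenchymal-like cells (left) and mural-like cells (right) as percent of its level in neuron-like cells of the same library (log axis), with the 15 neuron markers as dashes and their median as a broken line. STMN4 lies below the marker medians of 0.806% and 0.830% in mesenchymal-like cells, and the other 9 genes lie above them.

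In neuron-like cells themselves, the genes differed little between 45 and 15 days of induction. None of the 10 was 2-fold higher at 45 days, against 1.99% of 9841 genes, and none was 2-fold lower, against 1.17%. MAP2 had the largest difference, with 256 CPM at 45 days and 153 CPM at 15 days, a ratio of 1.68 (1.52 to 1.85). STMN2 was 0.808-fold (0.790 to 0.826), with 3649 CPM at 45 days and 4517 CPM at 15 days. DCX, with 839 CPM at 45 days and 860 CPM at 15 days, did not differ beyond counting error. NEUROD1 differed far more in the same cells, with 724 CPM at 45 days and 11.9 CPM at 15 days.

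Neuron-like cells fell into 2 clusters, and all 10 genes were lower in cluster 19 than in cluster 20 in both induced libraries. Of the 15 neuron markers, 14 marked cluster 19 and 15 marked cluster 20. Cluster 19 was led by NEUROD1, HRK, PDLIM3 and INSM1, and cluster 20 by the filament genes NEFL and PRPH and by RTN1. STMN2 had 1754 CPM in cluster 19 and 4265 CPM in cluster 20 at 45 days, and 2329 CPM and 4675 CPM at 15 days. At 45 days 4 of 10 members (STMN2, DCX, MAPT and MAP2) were at least 2-fold lower in cluster 19, against 11.0% of genes. At 15 days 2 of 10 (STMN2 and GAP43) were, against 7.60%. For TUBB3 the counting intervals of the ratio included 1 in both libraries, as they did for STMN3 at 15 days.

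The clusters also differed in depth and composition. Cells of cluster 19 had a median of 3469 UMIs at 45 days and 1965 UMIs at 15 days, and cells of cluster 20 had 19831 and 25544 UMIs. Fewer than 1% mitochondrial UMIs were found in 59.4% of cluster 19 cells at 45 days and 32.5% at 15 days, against 3.67% and 6.32% in cluster 20. The 12 mesenchymal markers summed to 581 CPM in cluster 19 and 145 CPM in cluster 20 at 45 days, and to 286 CPM and 54.0 CPM at 15 days, with none of the 12 at 0. The 12 mural markers summed to 171 CPM in cluster 19 and 154 CPM in cluster 20 at 45 days, and to 177 CPM and 277 CPM at 15 days, with 1 to 3 of them at 0. The 12 endothelial markers summed to 87.9 CPM in cluster 19 and 33.3 CPM in cluster 20 at 45 days, and to 440.1 CPM and 52.6 CPM at 15 days, with 0 to 3 of them at 0. The part of these differences in the lower levels of cluster 19 was not tested.

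Cluster 19 made up 197 of 306 neuron-like cells at 45 days and 123 of 297 at 15 days, so levels were compared within each cluster. In cluster 20, MAP2 was 1.93-fold (1.74 to 2.14) at 45 days over 15 days, with 303 and 157 CPM. KIF5C was 1.22-fold there (913 and 748 CPM), STMN4 1.18-fold, GAP43 1.14-fold and DCX 1.12-fold. STMN2 was 0.912-fold (4265 and 4675 CPM), and MAP1B was 0.998-fold (0.974 to 1.02). In cluster 19, GAP43 was 1.33-fold (1.14 to 1.57), while STMN2 was 0.753-fold and DCX 0.748-fold (0.614 to 0.912). MAP2 was 1.30-fold in cluster 19 (0.849 to 2.04, from 85 and 30 UMIs), so there it did not differ beyond counting error. DCX thus differed in direction between the clusters, which was not tested over samples.

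**Figure D5:**
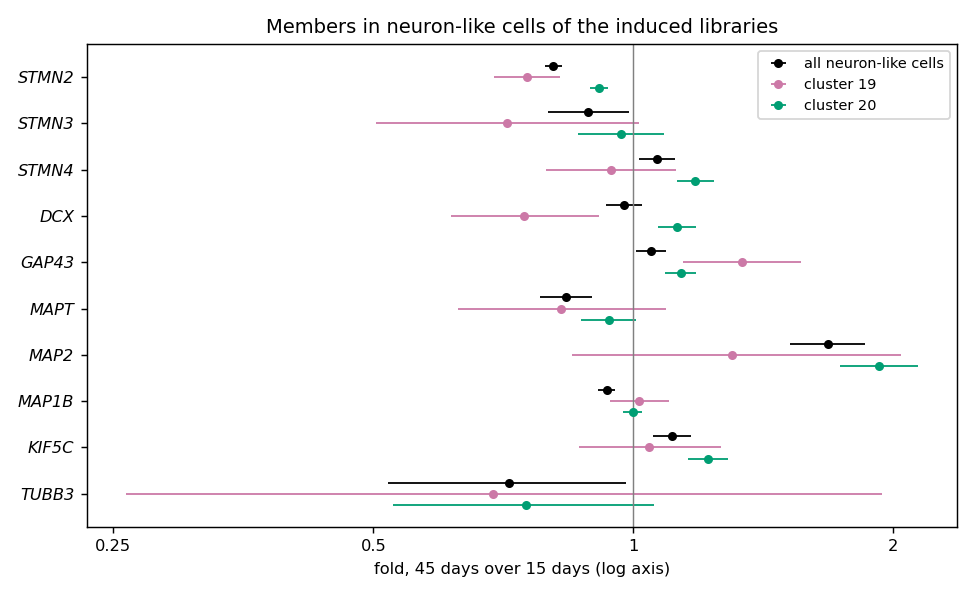
Ratio of the 45-day to the 15-day level (log axis) of each gene in all neuron-like cells and in clusters 19 and 20, with 95% counting intervals. MAP2 lies furthest to the right, at 1.68 over all neuron-like cells and 1.93 in cluster 20, and the next largest ratio is that of GAP43 in cluster 19, at 1.33.

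In single cells thinned to 2000 UMIs, the genes were found together in neuron-like cells. At least 5 of the 10 had a UMI in 71.8% of 241 such cells at 45 days and in 85.8% of 233 at 15 days. Thinning kept every cluster 20 cell, but in cluster 19 it kept only 132 of 197 (45-day library) and 59 of 123 (15-day library). Within cluster 20 the share with at least 5 was 95.4% at 45 days and 93.1% at 15 days. The pooled order thus did not hold in cluster 20. Within the deeper part of cluster 19 left by thinning, the share with at least 5 was 52.3% and 64.4%. In mesenchymal-like cells at the same depth this held for 2 of 6128 cells at 45 days, 7 of 2844 cells at 15 days and 0 of 5854 cells without induction. At least 3 of the 10 were found in 2.48% of mesenchymal-like cells at 45 days and 6.26% at 15 days, against 0.581% without induction. Mural-like cells gave 5.76% at 45 days and 7.53% at 15 days, against 2.99% (1.44 to 5.44) without induction.

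Close relatives of the members varied in how far neuron-like cells stood above the others. KIF5A, the neuronal kinesin-1 heavy chain, had 208 CPM in neuron-like cells at 45 days and 209 CPM at 15 days, and at most 2.69 CPM in mesenchymal-like or mural-like cells of any library. KIF5B, the ubiquitous one, had 165 CPM in neuron-like and 157 CPM in mesenchymal-like cells at 45 days, and 92.4 CPM and 175 CPM at 15 days. STMN1, the general stathmin, had 1545 CPM in neuron-like cells and 609 CPM in mesenchymal-like cells at 45 days. TUBB2A had 1525 CPM in neuron-like cells at 15 days, against 27.4 CPM in mesenchymal-like cells, and in the uninduced library it had 29.4 CPM in mesenchymal-like and 86.1 CPM in mural-like cells. TUBB6, a widely expressed beta tubulin, had 19.4 CPM in neuron-like and 26.9 CPM in mesenchymal-like cells at 15 days. MARCKS, a growth cone membrane protein found in many tissues, had 917 CPM in neuron-like and 923 CPM in mesenchymal-like cells at 45 days. BASP1, a relative of GAP43 in function, had 1976 CPM in neuron-like cells and 414 CPM in mesenchymal-like cells at 45 days. DCLK2, a doublecortin-like kinase, was lower in neuron-like cells than in mesenchymal-like cells at 15 days, with 22.6 and 49.8 CPM.

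A wider list of 76 genes of tubulin, microtubule binding, axonal transport and axon adhesion was followed as well. Of 65 that reached 10 CPM, 11 were at least 2-fold higher at 45 days than without induction and 0 were lower, against 1.74% and 1.44% of all genes. At 15 days 25 of 69 were higher and 0 lower, against 4.49% and 1.08%. ANK2, an axonal membrane scaffold, had 27.2 CPM at 45 days and 53.1 CPM at 15 days, against 3.55 CPM without induction. KIF1A, a motor of synaptic vesicle precursors, had 23.6 CPM at 45 days, against 3.33 CPM without induction, and KIF5A had 12.8 CPM, against 0.476 CPM. SNCG had 219 CPM at 15 days, against 21.1 CPM without induction, and CNTN2, an axonal adhesion protein, had 40.1 CPM, against 1.21 CPM. ANK2, KIF1A, KIF5A and CNTN2 reached 10 CPM only with induction, so they could only be counted as higher. At the other end FIGN, a microtubule-severing enzyme, had 8.56 CPM at 15 days, against 15.9 CPM without induction.

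In neuron-like cells 44 of the 76 genes were at least 4-fold above mesenchymal-like cells at 45 days and 43 at 15 days, against 8.32% and 8.47% of all genes. KATNA1, a katanin subunit, was lowest relative to mesenchyme, with 16.4 CPM in neuron-like and 52.1 CPM in mesenchymal-like cells at 45 days. Between 45 and 15 days, 1 of the 76 was at least 2-fold higher in neuron-like cells and 1 lower, shares near the 1.99% and 1.17% of all genes. These were GPM6A, a neuronal membrane glycoprotein (41.9 and 14.2 CPM), and CNTN2 (98.2 and 318 CPM), with 45 days first in each pair. In mesenchymal-like cells 0 of 54 were 2-fold higher at 45 days than in the uninduced library, against 1.08% of all genes, and 1 of 56, SNCG (43.7 against 15.9 CPM), was at 15 days, against 2.23%.

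Genes whose level followed a member over the 24 clusters were sought among 13654 genes by Pearson's r of log2(CPM + 5), with the libraries pooled. The clusters share libraries and depth, so r is a description. STMN4 was followed most closely by CARMIL2, TTC9B and KIF5A (each 0.99), and TUBB3 by SYP, ZDHHC22 and RTBDN (each 0.98). In mesenchymal-like clusters STMN4 reached at most 4.25 CPM and TUBB3 at most 1.09 CPM. With 5 CPM added, their r therefore rests mainly on the neuron-like clusters, and many genes limited to neurons could give such values. For DCX the first were GNG3 (0.97) and OLFM1 (0.96). STMN2 was followed by SYT1 (0.91), TENM1 (0.90) and DCLK1 (0.89). Over the 22 clusters that were not neuron-like, the first for STMN2 were PLAC1 (0.89), TENM1 (0.87) and NKX2-5 (0.86). For KIF5C it was SORCS1 (0.94), for MAPT LINGO1 (0.94) and for DCX FGF7 (0.93). No value is given for STMN4 or TUBB3 over these 22 clusters.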

How the data were processed

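Per the labels, organoids were dissociated with papain and single cells were sequenced with version 3 of the 10x 3′ kit. The deposited files hold raw counts, all whole numbers, of UMIs (unique molecular identifiers) for every gene in every barcode. Per the submitters' processing notes they came from Cell Ranger 3.0.0 on GRCh38, and the matrices name software version 3.0.1, per the file headers. Which gene annotation they used is not given in the sources used here. GENCODE 29 holds 33456 of the 33538 gene identifiers.

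The cell filter asked for 1000 UMIs, 500 genes and no more than 20% of UMIs from mitochondrial genes. Doublets were scored against simulated doublets within each library and removed at 0.8% per 1000 barcodes (725, 253 and 831 barcodes with no, 15 and 45 days of induction). Cells were clustered together without integration in scanpy 1.11.5 (totals set to 10000, 2000 variable genes without the 10 members, 30 components, 15 neighbours, Leiden resolution 1.0), which gave 24 clusters. A cluster was named "X-like" from 3 or more markers that were 2-fold above all other cells and present in 10% of its own. A minimum share of the class's marker list was also asked for. Apart from cycling clusters, so was a marker of the class among the 20 leading genes, with no other class ahead among the first of them. Mesenchymal-like clusters were the exception. They were named among the clusters left over, from 3 or more markers that were 2-fold above the clusters already named, without mural-like and cycling ones. Against all other cells most of them would not have reached 3 mesenchymal markers. 1 cluster of 134 cells stayed unnamed. It had 7 hepatocyte and 7 epithelial markers, but no hepatocyte marker, the class it scored highest for, among its 20 leading genes.

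UMIs were summed by library and class and scaled to UMIs per 1000000 (CPM). Log2 ratios had 5 CPM added to each side, and counts of genes used those at 10 CPM or more on either side. A gene that reached 10 CPM on 1 side only could therefore be counted only as higher on that side. Intervals are exact (Poisson for levels, conditional binomial for ratios, Clopper-Pearson for shares) and cover counting error only. A sum of 0 is given with the limit that 3 UMIs would set. No test was made between groups, as each had 1 library, and the calculation was tested on simulated data. The genes named are the members, their family relatives, the 3 highest and lowest of the 76-gene list in each comparison (some of which are not printed) and the genes most correlated with a member. Members and lists were chosen with earlier results of these data known. Alternatives tried were the doublet and cell filters, clustering resolution, marker-based cells, scaling and the CPM added.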

Additional observations from a re-analysis of the deposited data

How the results depend on the processing

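No paired analysis was possible because each group had 1 library, and for the same reason no library could be left out. With neuron-like cells left out, the number of members at least 2-fold higher than without induction was 2 at 45 days (7 with them) and 3 at 15 days (9 with them), and the log2 ratio of MAP1B at 15 days became -0.11. The number at least 2-fold lower at 45 days than at 15 days, 1 in the values reported, was 0 with no cell filter, with neuron-like cells left out, with median-of-ratios scaling and with 20 CPM added, and 3 with the stricter filter of 2000 UMIs, 1000 genes and 10% mitochondrial UMIs. The cause was not tested. With mesenchymal-like clusters weighted equally, an alternative chosen after seeing the data, 0 members (2 as reported) were 2-fold higher at 45 days than without induction and 2 (4 as reported) at 15 days. The log2 ratio of MAP1B at 15 days was then 0.28 in mesenchymal-like cells. The other 74 recomputed main counts and summaries stayed within 1.5 times of the reported ones. Of the recomputed values outside these main ones, 514 were labelled the same, 315 moved and 1 reversed. STMN4 and DCX were limited to neuron-like cells under all 6 other settings of filters and clustering, while the low level of TUBB3 fixes its call. With limits of 5 or 20 CPM, 2 or 4 genes were limited. Median-of-ratios scaling moved the median gene by 0.15 (45 days) and 0.21 (15 days) on the log2 scale relative to no induction. Levels of a few CPM rest on few UMIs, and TUBB3 could not be followed outside neuron-like cells at this depth.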
